A study of Mus musculus with 8 samples.

Results

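The 35 genes described here encode the motors, scaffolds and kinases that build the mitotic spindle and then divide the cell. They comprise 12 kinesin genes and 23 genes for spindle assembly proteins, centrosome kinases and proteins of the central spindle, cleavage furrow and midbody. They were taken by symbol from a table of 16369 genes, in which all 35 had a row, and all 35 were among the 12227 genes with enough reads to be tested. RNA had been sequenced from MLO-Y4 cells. This mouse line has properties of osteocytes, the load-sensing cells embedded in bone. In 4 libraries, labelled H19 silenced and called ASO here, the long non-coding RNA H19 had been targeted with an antisense oligonucleotide (ASO), and the cells were under flow (fluid shear, 2 Pa, 4 cycles). The other 4, called control, were labelled WT (NC) and had the same shear. The protocol text is the same for both groups and the labels do not say what the control cells received, so an effect of any oligonucleotide and one of H19 loss cannot be told apart. No library came from cells without shear. The labels name no separate cultures, and the p-values therefore cover only library-to-library spread, which may be technical.

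Cells that enter mitosis assemble a bipolar array of microtubules, in which kinesins walk along or shorten microtubules and use ATP to slide, carry or anchor them, while non-motor proteins nucleate and bundle them. After the chromosomes separate, a bundle of antiparallel microtubules, the central spindle, marks where an actomyosin ring pinches the cell, and a remnant, the midbody, is cut last. Most of these genes are transcribed mainly in G2 and mitosis, so in a culture their mRNA level depends on how many cells are in these phases as well as on the amount per cell, and bulk RNA-seq cannot tell these apart.

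The libraries were of nearly equal depth, with between 19501984 and 19914209 estimated reads. The targeted transcript H19 itself is not analysed here, and the group labels stand unchecked. Of 6 osteocyte markers with a row, Pdpn was abundant (195 ± 7.58 TPM in ASO and 170 ± 12.1 TPM in control libraries; ± is the SD over 4 libraries for TPM throughout), and rose (log2 fold change 0.22 ± 0.06 SE, edgeR adjusted p = 0.031), Gja1 was abundant too, whereas Sost and Mepe lay below 0.1 TPM in every library. The osteocyte markers summed to 486 to 556 TPM in ASO libraries and 470 to 531 TPM in control libraries. Phex did not reach an adjusted p under 0.05 (2.55 ± 0.553 TPM in ASO and 2.92 ± 0.136 TPM in control libraries, log2 fold change -0.18 ± 0.12 SE, edgeR adjusted p = 0.35). Dmp1 was low and fell (0.410 ± 0.212 TPM in ASO and 1.14 ± 0.381 TPM in control libraries, log2 fold change -1.46 ± 0.34 SE, edgeR adjusted p = 0.012). Of 5 osteoblast markers, which summed to 1700 to 2260 TPM in ASO libraries and 1660 to 2220 TPM in control libraries and mostly to Col1a1, 2 rose and 1 fell. Alpl (log2 fold change 0.37 ± 0.07 SE, edgeR adjusted p = 0.0039) and Sp7 (log2 fold change 0.43 ± 0.12 SE, edgeR adjusted p = 0.026) rose, and Bglap, with fractional counts, fell (log2 fold change -0.60 ± 0.15 SE, edgeR adjusted p = 0.018). Of 3 macrophage markers with a row, 2 were tested, and Cd68 rose (29.8 ± 3.33 TPM in ASO and 10.4 ± 2.07 TPM in control libraries, log2 fold change 1.54 ± 0.13 SE, edgeR adjusted p = 1.7e-05). The other tested marker also had a positive log2 fold change, 0.68, and did not pass. The sum of the 3 was 28.2 to 36.1 TPM in ASO libraries and 8.39 to 13.3 TPM in control libraries. Ptprc, which defines blood cells, was at 0.128 ± 0.0411 TPM in ASO and 0.118 ± 0.0854 TPM in control libraries. Endothelial and epithelial markers summed to less than 1 TPM in every library. The part of these markers in the results below was not tested. The second principal component, with 17.1% of the variance, set replicates 1 and 2 of each group apart from replicates 3 and 4. The labels name no such division, and values within each part are given below.

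With the ASO, spindle, kinesin and cytokinesis genes were higher as a group. Of the 35 genes 26 rose and 0 fell by the quasi-likelihood test of edgeR at an adjusted p (Benjamini-Hochberg) under 0.05, with 4 libraries a group. Of all tested genes 7.11% rose and 7.53% fell. No gene was lower at an unadjusted p under 0.05 either, and 33 were higher at that level, where 14.9% of tested genes were. DESeq2 called 28 higher, where it called 8.11% of tested genes higher. All 35 log2 fold changes, given as ASO over control throughout, were above 0, as were 50.6% of those of all tested genes. The median was 0.38, against 0.003 for all tested genes, and 94.7% of tested genes lay below that median. The changes were modest: they ran from 1.06-fold for Numa1 to 1.52-fold for Kif22, and 1 gene reached 1.5-fold. In 19 of the 35 genes every ASO library lay above every control library in TPM, which held for 8.28% of tested genes. TPM is the authors' transcript level, scaled to gene length and depth. In counts per library size after TMM scaling (CPM) the groups were apart in 20 genes, against 9.77% of tested genes. None of the 35 had every ASO library below every control library, which held for 10.3% of tested genes in TPM and 9.36% in CPM.

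**Figure D1:**
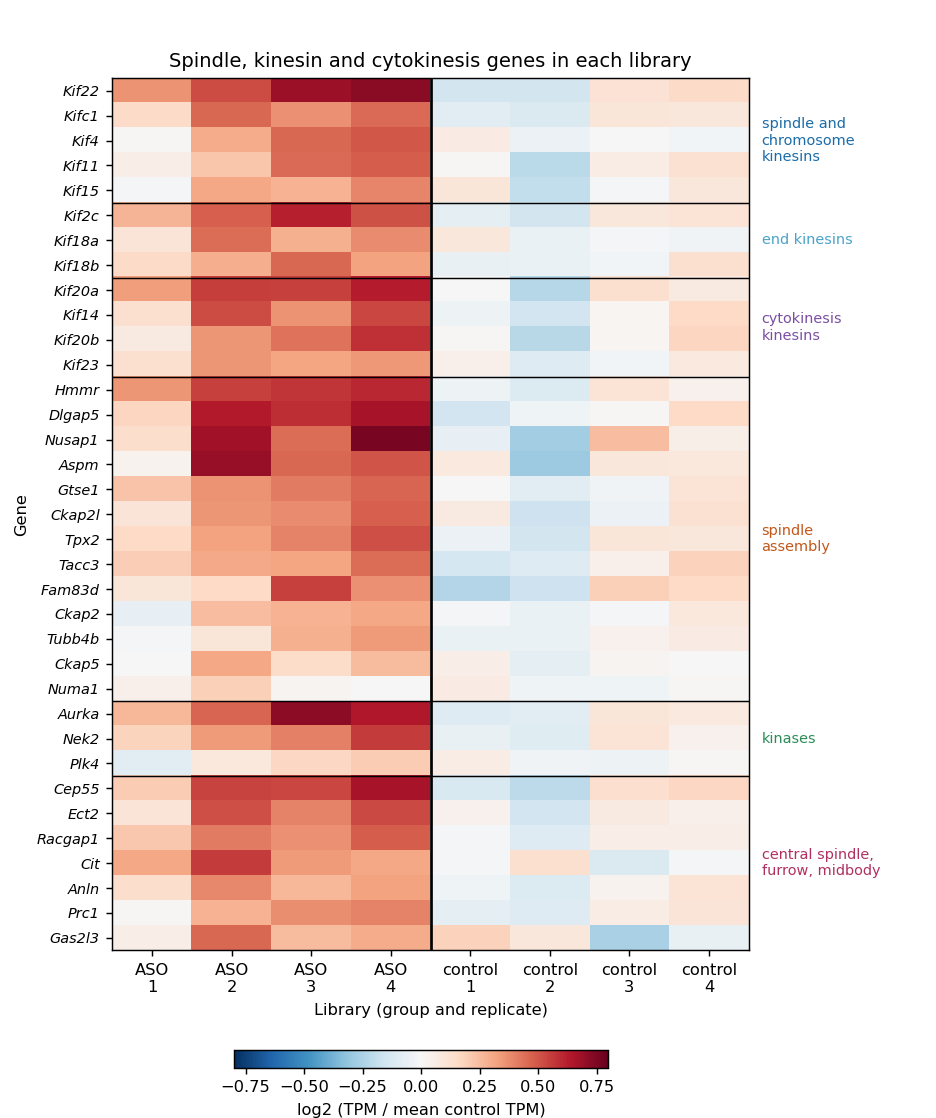
Level of each of the 35 genes in each library, as the log2 of its TPM over its mean control TPM, with ASO libraries on the left and control libraries on the right, ordered by role and then by fold change. The median over the genes was 0.13 in ASO replicate 1 and 0.36 to 0.48 in the other ASO libraries, against -0.11 to 0.09 in control libraries.

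The libraries moved together over these genes. The median log2 ratio to the control mean was 0.13, 0.36, 0.40 and 0.48 in ASO replicates 1 to 4, against -0.02, -0.11, 0.04 and 0.09 in control replicates 1 to 4. ASO replicate 1 was the lowest ASO library in 34 of the 35 genes, and ASO replicate 4 was the highest in 22. Among controls, replicate 2 was the lowest in 24 genes and replicate 4 the highest in 17. The summed level of the 35 genes was 1440, 1660, 1730 and 1800 TPM in ASO libraries, against 1290, 1240, 1370 and 1410 TPM in control libraries. The sum was 1.25 times as high in ASO libraries, and 1.33 times as high for the 12 kinesin genes alone, at 355 ± 32.4 TPM in ASO libraries and 267 ± 19.9 TPM in control libraries (SD, n = 4 each). Without ASO replicate 1 the number of these genes called higher was 33, where 7.86% of tested genes rose. It was 20 without ASO replicate 4, where 4.5% of tested genes rose, and 20 without control replicate 2, where 4.38% rose.

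The difference was present in both parts of the samples. This division was chosen with earlier results of these data known, and the labels do not name it. In samples 1 and 2 alone 17 genes rose, where 4.12% of tested genes rose, and the median of the 35 log2 fold changes was 0.33. Samples 3 and 4 alone had 33 that rose, where 8.61% of tested genes rose, with a median of 0.42. The 17 were all among the 33, and 26 of the 35 genes had the larger fold change in samples 3 and 4. The difference between the parts was tested with an interaction term in edgeR, which called 0 of the 35 genes and 0.0% of all tested genes. At an unadjusted p under 0.05 the interaction passed in 4 of these genes (Kif4, Tubb4b, Plk4 and Gas2l3, named after their values were seen) and in 809 of all tested genes. With the division as a term in the model 33 genes rose, where 12.8% of tested genes rose, and the exceptions were Numa1 and Plk4.

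**Figure D2:**
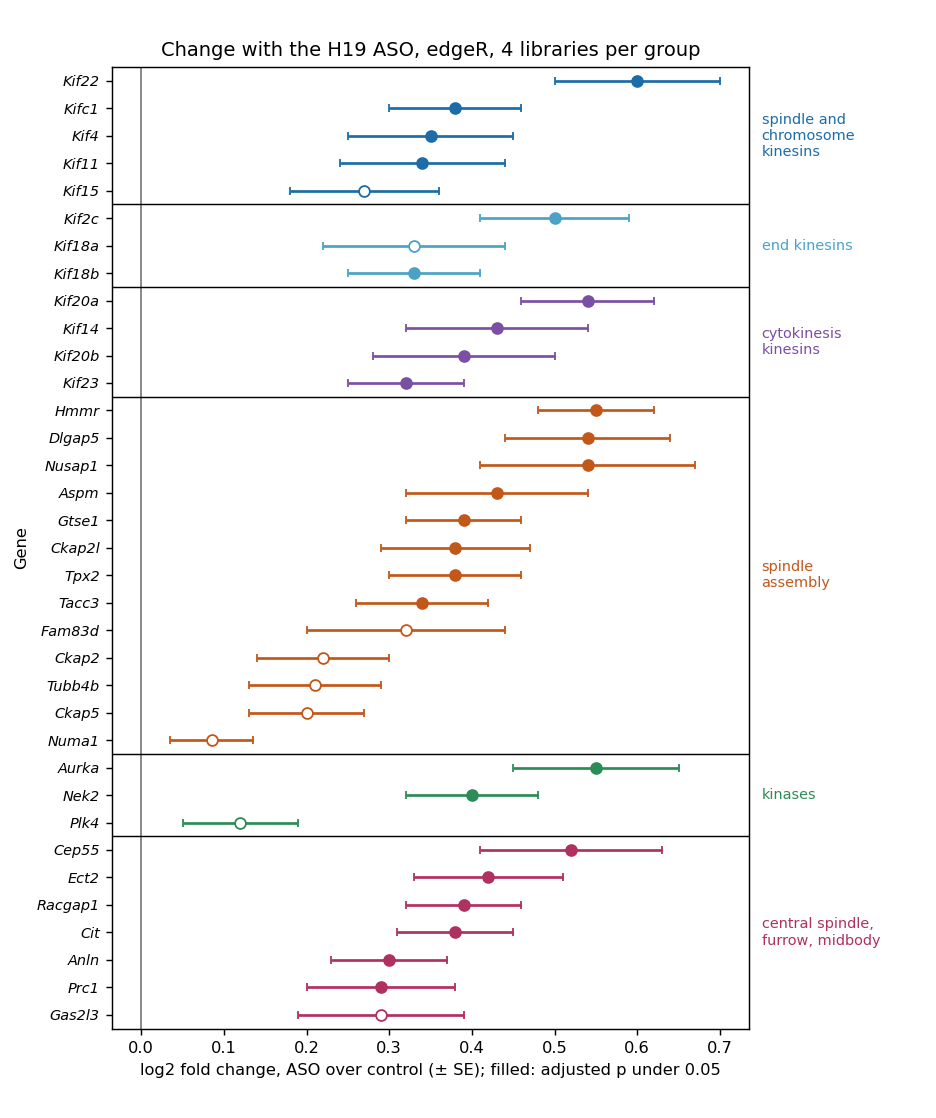
Log2 fold change of each gene, ASO over control, with its standard error, by role, where filled points passed an adjusted p of 0.05. All 35 points lie above 0, from 0.09 for Numa1 to 0.60 for Kif22, and 9 are open.

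Promoters of mitotic genes are known to carry CCAAT boxes, bound by NF-Y, and a nearby cell cycle genes homology region (CHR), bound by the MuvB core of the DREAM and B-Myb complexes. RefSeq windows from 250 bases before to 50 bases after a transcript start on GRCm38.p6 were at hand for 32 of the 35 genes. In 25 of them this start lay within 50 bases of the outermost start of the gene. In the other 7 (Aspm, Aurka, Cit, Ect2, Kif14, Kif2c and Numa1) it lay inside the gene, by 316 bases in Aurka up to 3852 bases in Kif2c and 35866 bases in Numa1, so that these windows need not be at the main promoter. They were searched on both strands for the letters TTTGAA or the palindrome TTCGAA (CHR) and CCAAT, and no match of one motif overlapped a match of the other in these genes. A CHR match was found in 24 of the 32 genes (75.0%), against 16.8% of 9779 tested genes with a window and 19.2% of all 32851 windows. A CCAAT match was found in 21 genes (65.6%), against 43.7% of tested genes and 37.4% of all windows, and both in 19 (59.4%), against 7.19% of tested genes. Among the 25 genes with a window at the gene's outermost start, 19 (76.0%) had a CHR match and 17 (68.0%) a CCAAT match, a count added after the data were seen. In the first listed window of each gene 23 of 30 CHR matches began between 60 bases before and 50 bases after the start. The share of matches in this span was not computed for other genes. Of 24 genes with a CHR match 18 rose, and of 8 without one 5 rose, and the median log2 fold change was 0.36 with and without it.

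Stretches upstream of 5 starts, all among these 25, show these arrangements, with matches to either motif on either strand in capitals (ATTGG is CCAAT, and TTCAAA is TTTGAA, on the other strand). Each is given 5′ to 3′ on the gene's own strand from 100 bases before the start, ending before the first base of the RefSeq gene. Kif11 and Ckap2l rose and have both motifs, Racgap1 rose and has CCAAT here with its CHR match just after the start, Ckap5 has both motifs and did not pass, and Plk4 has no match and did not pass. Absence of a match did not go with absence of a rise. Nusap1 and Tacc3, not printed, have no match in windows at the gene's outermost start, and both rose. Kif18a has none there either and did not pass.
Kif11 (chr19:37376282-37376381, plus strand, GRCm38.p6): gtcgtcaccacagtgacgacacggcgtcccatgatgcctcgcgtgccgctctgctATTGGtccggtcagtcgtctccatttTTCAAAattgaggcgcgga
Ckap2l (chr2:129297229-129297312, minus strand, GRCm38.p6): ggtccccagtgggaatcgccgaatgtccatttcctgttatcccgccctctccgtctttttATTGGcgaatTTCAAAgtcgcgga
Racgap1 (chr15:99651657-99651756, minus strand, GRCm38.p6): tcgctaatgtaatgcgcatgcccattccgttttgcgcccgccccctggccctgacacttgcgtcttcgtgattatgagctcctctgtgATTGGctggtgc
Ckap5 (chr2:91526662-91526746, plus strand, GRCm38.p6): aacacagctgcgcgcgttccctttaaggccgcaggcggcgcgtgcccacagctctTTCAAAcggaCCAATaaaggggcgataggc
Plk4 (chr3:40799851-40799950, plus strand, GRCm38.p6): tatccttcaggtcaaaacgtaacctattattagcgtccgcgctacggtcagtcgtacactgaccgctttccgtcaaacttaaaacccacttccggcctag

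**Figure D3:**
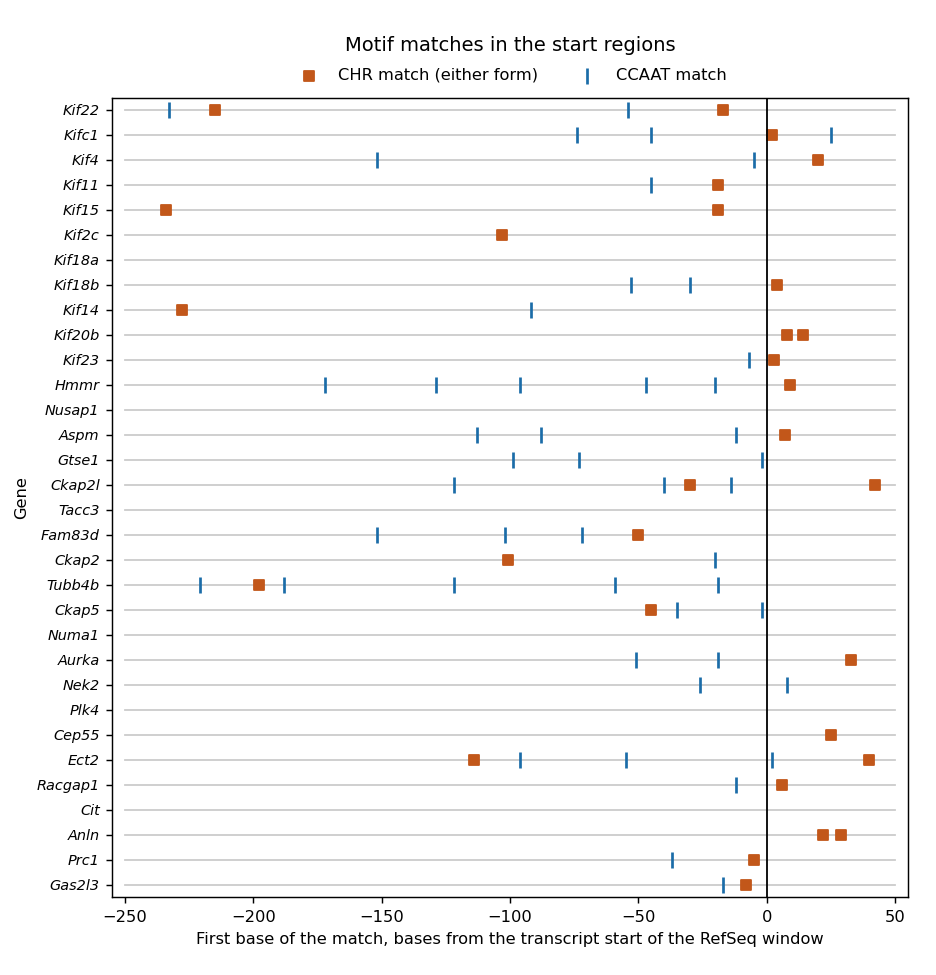
Position of each CHR match (squares) and CCAAT match (bars) from 250 bases before to 50 bases after the transcript start of the RefSeq window, in the first listed window of the 32 genes that had one, ordered by role and fold change. Of 30 CHR matches, 23 began between 60 bases before and 50 bases after the start. Matches to CCAAT mostly lie before the start, with 3 of 47 after it. In 7 of these genes, Kif2c, Kif14 and Numa1 among them, that start lies inside the gene.

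Among the kinesins that build the spindle and move chromosomes, 4 of 5 rose. Kif22, a motor on chromosome arms that pushes them outwards (gene 110033, chromosome 7, 127027729 to 127042467, GRCm38.p6), had 27.9, 31.2, 34.9 and 35.9 TPM in ASO replicates 1 to 4, against 19.6, 19.6, 23.6 and 24.1 TPM in control replicates 1 to 4. The groups did not overlap, and the gene had the highest fold change of the 35 (log2 fold change 0.60 ± 0.10 SE, edgeR adjusted p = 0.0021). Kif11, which slides antiparallel microtubules apart to make the spindle bipolar (gene 16551, chromosome 19, 37376382 to 37421863, GRCm38.p6), had 17.2, 19.4, 22.7 and 23.2 TPM in ASO replicates 1 to 4, against 16.8, 14.3, 17.3 and 18.1 TPM in control replicates 1 to 4. ASO replicate 1 lay below the highest control, so the groups overlapped, and the rise was smaller (log2 fold change 0.34 ± 0.10 SE, edgeR adjusted p = 0.040). Its printed upstream stretch holds both motifs. Kifc1, a minus-end motor that focuses spindle poles, rose without overlap (66.3 ± 6.32 TPM in ASO and 51.5 ± 3.96 TPM in control libraries, log2 fold change 0.38 ± 0.08 SE, edgeR adjusted p = 0.0057), but its value is uncertain because it had fractional counts. The chromosome motor Kif4 rose (log2 fold change 0.35 ± 0.10 SE, edgeR adjusted p = 0.026), with 14.6, 17.9, 20.1 and 20.5 TPM in ASO replicates 1 to 4, against 15.2, 14.1, 14.6 and 14.3 TPM in control replicates 1 to 4. ASO replicate 1 was among the controls, and the spread of the 4 ASO libraries was wider than that of the controls. Kif15, which can share the task of Kif11, did not pass (log2 fold change 0.27 ± 0.09 SE, edgeR adjusted p = 0.067).

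The calls of Kif11 and Kif4 each ended without ASO replicate 3, ASO replicate 4, control replicate 2 or control replicate 4, and that of Kif11 also without control replicate 1. The adjusted p then reached 0.12 for Kif11 and 0.086 for Kif4.

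All 3 kinesins that act at microtubule ends had ASO libraries entirely above controls in TPM, and 2 of them rose. Such a separation held for 8.28% of tested genes, and in Kif18a it was by a narrow margin. Kif2c, which removes tubulin from microtubule ends and helps to correct wrong attachments (gene 73804, chromosome 4, 117159633 to 117182624, GRCm38.p6), had 31.8, 36.8, 40.5 and 37.6 TPM in ASO replicates 1 to 4, against 25.1, 23.8, 28.1 and 28.4 TPM in control replicates 1 to 4. It had the second highest fold change among the kinesins outside cytokinesis (log2 fold change 0.50 ± 0.09 SE, edgeR adjusted p = 0.0024). Kif18b, which works with Kif2c on astral microtubules, rose by less (34.2 ± 2.95 TPM in ASO and 27.6 ± 1.72 TPM in control libraries, log2 fold change 0.33 ± 0.08 SE, edgeR adjusted p = 0.011). Kif18a, which damps chromosome movements at the metaphase plate, was a low gene with 2.70, 3.43, 3.06 and 3.27 TPM in ASO replicates 1 to 4, against 2.68, 2.42, 2.49 and 2.47 TPM in control replicates 1 to 4. It did not pass (log2 fold change 0.33 ± 0.11 SE, edgeR adjusted p = 0.066), although its estimate was the same as that of Kif18b, and its level stood for 105 to 131 reads per ASO library and 92 to 100 per control library.

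All 4 cytokinesis kinesins rose. Kif20a, which carries chromosomal passenger proteins to the central spindle, had 83.2, 96.8, 96.4 and 102 TPM in ASO replicates 1 to 4, against 66.0, 56.3, 72.1 and 69.3 TPM in control replicates 1 to 4. The ranges were apart by a wide margin (log2 fold change 0.54 ± 0.08 SE, edgeR adjusted p = 0.0012). Of its exon bases 29.3% are shared with Cdc23 on the opposite strand in the GENCODE annotation, and since the strand of the reads is not given, reads from these genes cannot be told apart there. Cdc23 itself had a log2 fold change of -0.05 ± 0.07 (edgeR adjusted p = 0.665). Kif23, the motor of the centralspindlin complex that bundles the central spindle (gene 71819, chromosome 9, 61917277 to 61946810, GRCm38.p6), rose without overlap (29.9 ± 2.14 TPM in ASO and 24.5 ± 1.36 TPM in control libraries, log2 fold change 0.32 ± 0.07 SE, edgeR adjusted p = 0.0071). Kif14, which recruits citron kinase to the midbody (log2 fold change 0.43 ± 0.11 SE, edgeR adjusted p = 0.017), and Kif20b, which acts in the last steps of abscission (log2 fold change 0.39 ± 0.11 SE, edgeR adjusted p = 0.029), were low genes with overlapping groups. The call of Kif14 ended without ASO replicate 4 or control replicate 2 (largest adjusted p 0.056), and that of Kif20b without ASO replicate 3, ASO replicate 4, control replicate 1 or control replicate 2 (largest adjusted p 0.093).

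Of 13 genes for spindle assembly proteins 8 rose. Hmmr, a protein that links microtubules at the spindle poles (gene 15366, chromosome 11, 40701388 to 40733464, GRCm38.p6), had 22.2, 25.4, 25.8 and 26.4 TPM in ASO replicates 1 to 4, against 16.8, 16.1, 18.7 and 17.7 TPM in control replicates 1 to 4. All ASO libraries lay well above all controls, and it had the smallest adjusted p of the 35 genes (log2 fold change 0.55 ± 0.07 SE, edgeR adjusted p = 5.0e-04). Dlgap5, which stabilises the microtubules that hold chromosomes, had 23.6, 32.5, 31.6 and 33.1 TPM in ASO replicates 1 to 4, against 18.9, 20.5, 21.1 and 23.4 TPM in control replicates 1 to 4. ASO replicate 1 stood nearer to the controls than to the other ASO libraries (log2 fold change 0.54 ± 0.10 SE, edgeR adjusted p = 0.0039), and 1 or more of its counts were not whole. Nusap1, a protein that bundles microtubules near chromosomes, had 18.2, 26.4, 22.6 and 28.0 TPM in ASO replicates 1 to 4, against 15.8, 13.7, 19.7 and 17.1 TPM in control replicates 1 to 4. It rose (log2 fold change 0.54 ± 0.13 SE, edgeR adjusted p = 0.012), although ASO replicate 1 lay below control replicate 3.

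The other 5 that rose were Tpx2, an activator of Aurora A that starts microtubule growth near chromatin, Gtse1, an inhibitor of the Kif2c motor, Ckap2l, a spindle pole protein, Tacc3, part of a complex that crosslinks spindle fibres, and Aspm, which holds spindle poles together. Their log2 fold changes were 0.38 ± 0.08, 0.39 ± 0.07, 0.38 ± 0.09, 0.34 ± 0.08 and 0.43 ± 0.11 (SE), in this order. Aspm had 4.58, 7.28, 6.17 and 6.38 TPM in ASO replicates 1 to 4, against 4.75, 3.67, 4.78 and 4.77 TPM in control replicates 1 to 4. Its call ended without ASO replicate 2, ASO replicate 3, ASO replicate 4 or control replicate 2 (adjusted p up to 0.074).

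The other 5 spindle assembly genes did not pass. Numa1, a nuclear protein in interphase that tethers microtubules to dynein at the poles in mitosis (gene 101706, chromosome 7, 101933977 to 102014959, GRCm38.p6), had 34.6, 38.5, 34.2 and 33.6 TPM in ASO replicates 1 to 4, against 35.3, 32.9, 32.9 and 33.9 TPM in control replicates 1 to 4. ASO replicate 2 lay above all controls and the other 3 ASO libraries within their range (log2 fold change 0.09 ± 0.05 SE, edgeR adjusted p = 0.31). The approximate 95% interval of the log2 fold change ran from -0.02 to 0.19, below the median of the 35 genes. Ckap5, a polymerase that adds tubulin to microtubule ends, had 20.3, 25.1, 22.5 and 24.2 TPM in ASO replicates 1 to 4, against 21.1, 19.2, 20.5 and 20.3 TPM in control replicates 1 to 4. ASO replicate 1 lay among the controls and the other 3 above them (log2 fold change 0.20 ± 0.07 SE, edgeR adjusted p = 0.052). Tubb4b, a broadly expressed beta-tubulin and the most abundant of the 35 genes, had 293, 316, 359 and 375 TPM in ASO replicates 1 to 4, against 285, 285, 303 and 309 TPM in control replicates 1 to 4, and did not pass (log2 fold change 0.21 ± 0.08 SE, edgeR adjusted p = 0.10). Ckap2 (log2 fold change 0.22 ± 0.08 SE, edgeR adjusted p = 0.083) and Fam83d (log2 fold change 0.32 ± 0.12 SE, edgeR adjusted p = 0.088), which anchors casein kinase at the spindle, did not pass either. With the sample division in the model, 4 of these 5 passed, all but Numa1. That model called 12.8% of tested genes higher, against 7.11% without the term, and the division was chosen with earlier results known.

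Of the 3 kinase genes 2 rose. Aurka, the Aurora A kinase that matures centrosomes and promotes spindle assembly (gene 20878, chromosome 2, 172356190 to 172370886, GRCm38.p6), had 69.2, 79.5, 94.4 and 89.8 TPM in ASO replicates 1 to 4, against 53.5, 54.1, 61.5 and 60.8 TPM in control replicates 1 to 4. The 2 highest ASO libraries were replicates 3 and 4, and no ASO library overlapped the controls (log2 fold change 0.55 ± 0.10 SE, edgeR adjusted p = 0.0026). Nek2, which separates the centrosomes before mitosis, rose by less (23.9 ± 2.59 TPM in ASO and 18.5 ± 1.19 TPM in control libraries, log2 fold change 0.40 ± 0.08 SE, edgeR adjusted p = 0.0076). Plk4, the kinase that starts centriole duplication, which takes place around S phase (gene 20873, chromosome 3, 40799951 to 40816883, GRCm38.p6), had 31.1, 35.2, 37.2 and 38.1 TPM in ASO replicates 1 to 4, against 34.5, 32.5, 32.2 and 33.4 TPM in control replicates 1 to 4. Its printed upstream stretch holds neither motif, and neither do the windows of Nusap1 and Tacc3, which rose. ASO replicate 1 was the lowest of all 8 libraries, and the gene did not pass (log2 fold change 0.12 ± 0.07 SE, edgeR adjusted p = 0.29), with an approximate 95% interval from -0.02 to 0.25.

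Of 7 genes of the central spindle, furrow and midbody 6 rose. Racgap1, the partner of Kif23 in centralspindlin (gene 26934, chromosome 15, 99620496 to 99651656, GRCm38.p6), had 130, 150, 145 and 158 TPM in ASO replicates 1 to 4, against 111, 105, 117 and 117 TPM in control replicates 1 to 4. It was the second most abundant of the 35 genes and its groups lay apart (log2 fold change 0.39 ± 0.07 SE, edgeR adjusted p = 0.0025). Ect2, the exchange factor that activates RhoA at the furrow and binds centralspindlin, rose (18.7 ± 2.43 TPM in ASO and 14.3 ± 0.994 TPM in control libraries, log2 fold change 0.42 ± 0.09 SE, edgeR adjusted p = 0.0070). Cep55, which brings the abscission machinery to the midbody, had 16.2, 20.5, 20.4 and 22.3 TPM in ASO replicates 1 to 4, against 12.9, 12.2, 15.4 and 15.8 TPM in control replicates 1 to 4. It had the largest fold change of this group (log2 fold change 0.52 ± 0.11 SE, edgeR adjusted p = 0.0066), and ASO replicate 1 lay just above the highest control. Cit, the citron kinase of the midbody, had 7.60, 9.05, 7.79 and 7.60 TPM in ASO replicates 1 to 4, against 6.11, 6.70, 5.66 and 6.10 TPM in control replicates 1 to 4. It was a low gene with a clear separation (log2 fold change 0.38 ± 0.07 SE, edgeR adjusted p = 0.0041). Anln, the anillin scaffold of the contractile ring, rose by 0.30 ± 0.07 on the log2 scale (SE, edgeR adjusted p = 0.0087).

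Prc1, which crosslinks antiparallel microtubules in the central spindle, rose with overlapping groups (100 ± 11.7 TPM in ASO and 83.1 ± 5.81 TPM in control libraries, log2 fold change 0.29 ± 0.09 SE, edgeR adjusted p = 0.039). Its call ended without ASO replicate 2, 3 or 4 or control replicate 1 or 2 (largest adjusted p 0.12), and 11.1% of its exon bases are shared with Rccd1 on the opposite strand, a gene with a log2 fold change of -0.41 ± 0.13 (edgeR adjusted p = 0.0457). Gas2l3, a protein that links actin and microtubules, did not pass (log2 fold change 0.29 ± 0.10 SE, edgeR adjusted p = 0.063), and its counts were not whole. In all, 12 of the 35 genes share exon bases with another gene, from 0.112% for Kif18a to 29.3% for Kif20a and with 15.1% for Kif4, and 3 had counts that were not whole. Of the 20 genes with neither, 16 rose.

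**Figure D4:**
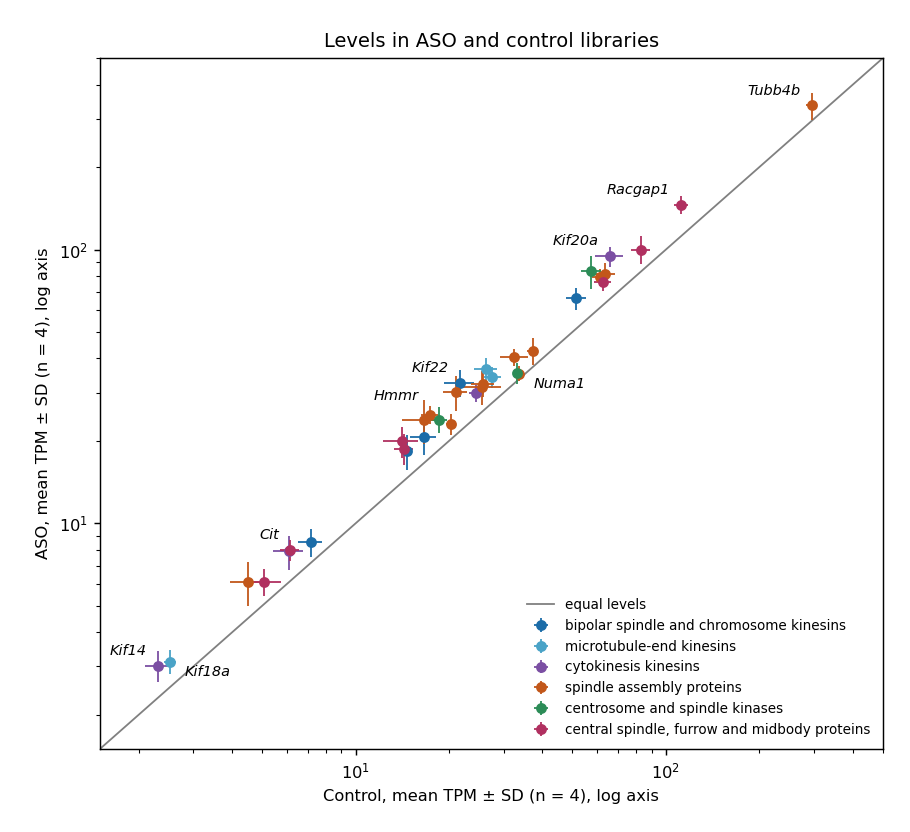
Mean TPM of each gene in ASO libraries (vertical) and control libraries (horizontal) on log axes, with SD over 4 libraries, coloured by role, where the line marks equal levels. The genes span 2.30 TPM for Kif14 to 295 TPM for Tubb4b in controls, and those nearest to the line include Numa1.

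On the TPM scale the genes spanned a wide range of levels in control cells, led by Tubb4b at 295 ± 12.5 TPM, Racgap1 at 112 ± 5.71 TPM, Prc1 at 83.1 ± 5.81 TPM and Kif20a at 65.9 ± 6.89 TPM (SD, n = 4). These 4 followed each other with separate control ranges, whereas Kif20a, Tpx2, Anln, Gtse1, Aurka and Kifc1, between 65.9 and 51.5 TPM, formed a series of neighbours whose ranges overlapped. Of the 34 neighbouring pairs in this order, 7 had separate control ranges. Kif14 at 2.30 ± 0.209 TPM and Kif18a at 2.52 ± 0.114 TPM were the lowest, and Aspm, Gas2l3, Kif20b, Cit and Kif15 lay between 4.49 and 7.16 TPM. The coefficient of variation between replicates had a median over the genes of 10.8% in ASO libraries and 7.39% in control libraries. Across the 35 genes, which are not independent replicates, the control level and the log2 fold change had a Spearman correlation of -0.18.

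Genes with related tasks were taken from 9 further lists, whose counts stand beside the 14.6% of all tested genes called in either direction (7.11% higher, 7.53% lower). These lists were written with earlier results of these data known, so they are not independent of them. Of 23 tested other regulators of spindle and cytokinesis in mitosis, 17 rose and 1 fell, with a median log2 fold change of 0.43. Plk1, the kinase that recruits Ect2 to the central spindle (log2 fold change 0.74 ± 0.08 SE, edgeR adjusted p = 1.1e-04), Birc5, a chromosomal passenger (log2 fold change 0.59 ± 0.08 SE, edgeR adjusted p = 6.2e-04), and Ccnb2, a mitotic cyclin (log2 fold change 0.58 ± 0.09 SE, edgeR adjusted p = 0.0016), had the smallest p-values. Arhgef39, a guanine nucleotide exchange factor gene, was the gene that fell (named after its value was seen, log2 fold change -0.65 ± 0.14 SE, edgeR adjusted p = 0.0083), with 13.6, 9.88, 14.0 and 10.5 TPM in ASO replicates 1 to 4, against 15.3, 23.8, 17.9 and 20.2 TPM in control replicates 1 to 4.

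Another list held transport kinesins, which carry cargo in all phases of the cycle, along with other kinesin genes and light chains. Of its 24 tested genes, 1 rose, 1 fell and 22 did not pass, and the median was 0.059. The 2 were Kif17 (0.630 ± 0.101 TPM in ASO and 0.253 ± 0.0457 TPM in control libraries, log2 fold change 1.40 ± 0.23 SE, edgeR adjusted p = 0.0020) and Kifc2 (1.13 ± 0.183 TPM in ASO and 1.85 ± 0.365 TPM in control libraries, log2 fold change -0.71 ± 0.18 SE, edgeR adjusted p = 0.019), both low genes. Of 21 genes for the gamma-tubulin ring and augmin, which nucleate microtubules, 19 did not pass, with a median of 0.008. Pcnt, the pericentrin scaffold, rose (log2 fold change 0.28 ± 0.06 SE, edgeR adjusted p = 0.0070) and Tubg2, with counts that were not whole, fell (log2 fold change -0.81 ± 0.19 SE, edgeR adjusted p = 0.012). Of 19 genes for centriole duplication, the process that Plk4 starts, 18 did not pass, with a median of 0.06, and Poc5 rose (log2 fold change 0.30 ± 0.08 SE, edgeR adjusted p = 0.019).

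Other tubulins had 11 of 12 tested genes that did not pass, with a median of 0.067. Tubb2a, with counts that were not whole, fell (log2 fold change -0.19 ± 0.06 SE, edgeR adjusted p = 0.040). Of 24 microtubule regulators and spindle positioning genes 4 rose and 20 did not pass, with a median of 0.016. Among those that rose were Mcrs1 (log2 fold change 0.23 ± 0.05 SE, edgeR adjusted p = 0.011) and Map1b (log2 fold change 0.31 ± 0.08 SE, edgeR adjusted p = 0.015). Of 20 contractile ring and septin genes 2 rose and 1 fell, a share close to that of all tested genes, with a median of 0.001. Diaph3, a formin that assembles actin, rose (log2 fold change 0.30 ± 0.06 SE, edgeR adjusted p = 0.0058), as did Septin10 (log2 fold change 0.40 ± 0.12 SE, edgeR adjusted p = 0.042), and Septin6 fell (log2 fold change -0.43 ± 0.09 SE, edgeR adjusted p = 0.0065). Of 21 abscission genes, mostly of the ESCRT machinery that cuts the midbody, 20 did not pass, with a median of 0.054, and Vps37b rose (log2 fold change 0.24 ± 0.07 SE, edgeR adjusted p = 0.041).

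Regulators of mitotic transcription moved both ways, with 3 of 18 tested genes higher, 2 lower and a median of -0.04. Foxm1, a transcription factor of G2 and mitosis, had 63.1, 69.2, 72.7 and 71.4 TPM in ASO replicates 1 to 4, against 53.5, 55.2, 54.7 and 59.5 TPM in control replicates 1 to 4. It rose without overlap (log2 fold change 0.33 ± 0.07 SE, edgeR adjusted p = 0.0050), and so did the DREAM component genes E2f4 (log2 fold change 0.23 ± 0.06 SE, edgeR adjusted p = 0.028) and Lin37 (log2 fold change 0.25 ± 0.07 SE, edgeR adjusted p = 0.035). Cdkn1a, the cyclin kinase inhibitor p21, had 211, 246, 231 and 241 TPM in ASO replicates 1 to 4, against 280, 256, 272 and 281 TPM in control replicates 1 to 4, and fell (log2 fold change -0.21 ± 0.06 SE, edgeR adjusted p = 0.036). Nfya, a subunit of the CCAAT-binding factor, also fell (log2 fold change -0.22 ± 0.07 SE, edgeR adjusted p = 0.046). The last 2 genes were named after their values were seen, as the rule took 3 per list.

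**Figure D5:**
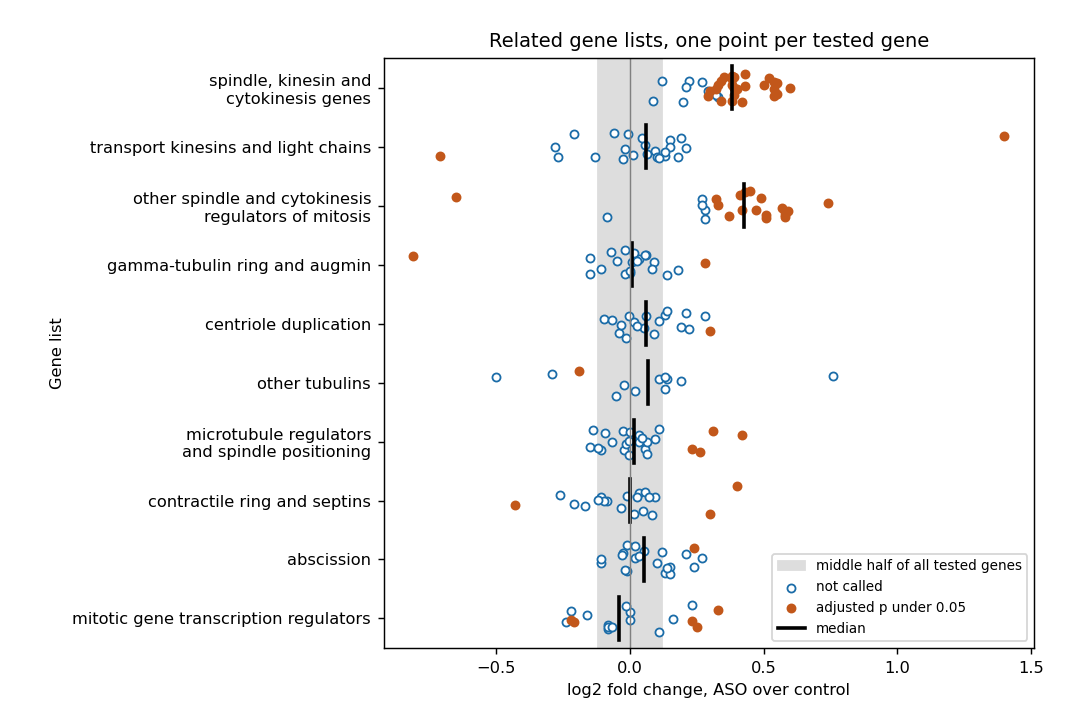
Log2 fold change, ASO over control, of each tested gene in the 35 genes described here (top) and in 9 related lists, with the median as a bar, called genes filled, and the middle of all tested genes, from the lower to the upper quartile, shaded. The top list has a median of 0.38 and other regulators of mitosis 0.43, while the medians of the remaining 8 lists lie between -0.04 and 0.067.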

How the data were processed

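RNA-seq of 8 MLO-Y4 libraries (4 ASO, 4 control, by sample title) was used. The authors deposited, per the file headers, estimated counts, FPKM and TPM per library, plus group means, which were not used. FPKM columns, which the authors scaled to length and depth, were not used either. HISAT, Bowtie2, GRCm38.p6 and mm10 are named in the submitters' processing notes without roles; the counter and the strand setting could not be learned from the labels. In each library 6.01% to 6.60% of genes had a fractional value among the deposited estimated counts, and these were rounded.

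Genes were filtered with filterByExpr, TMM-scaled, and compared in edgeR 4.0.16 in R 4.3.3 (glmQLFit, glmQLFTest, group as the single term), with Benjamini-Hochberg adjustment over 12227 genes at 0.05. Standard errors follow from the F statistic, and approximate 95% intervals are 1.96 SE to each side. This multiplier leaves out the few degrees of freedom of the F test, so the intervals are somewhat too narrow. At these depths, before TMM scaling, 3 reads are 0.151 to 0.154 CPM. Replicates differed by more than sampling noise (chi-square per degree of freedom 4.87 to 19.1). Replicate numbers were not taken to pair libraries. DESeq2 1.42.0 and limma 3.58.1 were alternatives. The procedure was run on simulated data with known changes. Genes were drawn independently there, with the spread fitted to these libraries and without the sample division. Joint shifts of genes between libraries were thus not covered. Exon sharing came from GENCODE, promoter windows from RefSeq. The genes, lists and sample division were chosen with earlier results of these data known. Named genes were all 35, up to 3 called genes with the smallest p per other list, and cell type markers. The result for 1 gene that this rule names is not reported here.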

Additional observations from a re-analysis of the deposited data

Results flagged for a closer look

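Of 76 sets of 4 libraries (each gene's TPM in each group, and 3 summaries over the genes), 3 held a library far from the others by Dixon's criterion, where chance gives about 1 in 20. Dlgap5 was at 23.6 TPM in ASO replicate 1, against 31.6 to 33.1 TPM in the other ASO libraries. Cit was at 9.05 TPM in ASO replicate 2, against 7.60 to 7.79 TPM in the other ASO libraries. Aspm was at 3.67 TPM in control replicate 2, against 4.75 to 4.78 TPM in the other controls. The calls of Dlgap5 and Cit held in all 8 fits that left out 1 library, whereas that of Aspm ended without control replicate 2.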

How the results depend on the processing

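The number of the 35 genes called higher was 26, and it stayed between 20 and 33 when 1 library was left out, with 0 called lower and the median log2 fold change between 0.32 and 0.44. Over all genes these fits gave 538 to 965 higher and 567 to 975 lower, against 869 and 921, and 25 to 40 calls in the 9 related lists, against 37. Of the 26 calls 20 held in all 8 of these fits, and Kif4, Kif11, Kif14, Kif20b, Aspm and Prc1 lost theirs in at least 1. Besides the fits without 1 library, whose ranges are given above, counts that moved by more than 1.5 times were the following. An adjusted p under 0.01 left 16 of the 35 genes higher. Over all genes it left 346 in the count of genes higher in ASO and 356 in that of genes lower in ASO, and 19 calls in the lists. Samples 1 and 2 alone gave 17 of the 35, 507 higher and 529 lower, and 20 calls in the lists, and there the log2 fold change of Plk4 was -0.019, with an adjusted p of 0.91. The sample division as a term gave 1560 higher and 1576 lower. Limma-trend on log2(TPM + 1) without a filter gave 16 of the 35, with 554 higher and 613 lower, and on log2(TPM + 0.1) 573 higher. The causes were not tested. A replicate block called 32 of the 35 higher, the 26 among them, where 10.4% of tested genes rose, and it ended none of the 26 calls. Same-numbered libraries had correlations of deviations of 0.049, 0.142, 0.214 and 0.127, and not every library correlated best with its own number, so the numbers were not taken as pairs. Under all other scalings, filters and tools the 35 genes had positive log2 fold changes, with 20 to 28 called higher. Kif14 and Kif18a had the fewest reads of the 35 genes, and an effect of depth on their results was not tested.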
